A study of Rattus norvegicus with 22 samples.

Results

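Subcutaneous fat of the groin was compared by RNA-seq, across all genes, between rats with type 2 diabetes (T2DM) and diabetic rats operated by duodenal-jejunal bypass (DJB), surgery that leads food past the duodenum. The members are the 5 subcutaneous T2DM and the 5 subcutaneous DJB libraries, chosen by their labels, 10 of 22 libraries in all. The other 12 libraries, 6 T2DM and 6 DJB, hold visceral fat of the mesentery and enter here only through the shared estimate of the spread between libraries. Every library is labelled wild type (WT), and the treatment tag is HFD (a high-fat diet) in the T2DM group and HFD with DJB in the other. The treatment text of every sample names STZ (streptozotocin, a toxin of the insulin-producing cells) at 30 mg/kg, and every sample title gives 4 months without saying of what. No healthy, sham-operated or pair-fed group is named. Whether each library is a different animal is not stated, and the spread behind the p-values is that between libraries, which may be technical. Libraries are numbered as in the labels (T2DM 1 to 5, DJB 1 to 5).

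The groin fat pad of a rat surrounds part of the mammary gland chain and the inguinal lymph node, so a piece of it can hold milk-producing and ductal epithelium and B and T lymphocytes beside fat cells. Fat cells store triglyceride and secrete hormones such as adiponectin and leptin. Interferon-γ, a cytokine made by T and NK cells, acts through JAK kinases and, through the factor IRF1 made in response, switches on guanylate-binding proteins, immunity-related GTPases, peptide transporters and the tryptophan-degrading enzyme IDO1 in many cell types, fat cells and macrophages among them. The GAS element and the ISRE are DNA motifs of interferon-responsive genes, and IRF factors bind the ISRE.

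The promoters below belong to interferon-γ-inducible genes that the results turn on, those of the interferon-γ list that passed the test once the lymphocyte-rich library DJB 2 was left out and that have a RefSeq entry. Each window runs 5′ to 3′ on the gene's strand from 250 bases before to 50 bases after the gene start in RefSeq's rat build GRCr8. Capitals mark matches to the GAS letters TTCNNNGAA, which read the same on both strands, and to the ISRE, searched as GAAA, any 2 bases and GAAA on either strand (TTTC, any 2 bases and TTTC as printed for Gbp2 and Tap1). The windows lie at chr10:33742529-33742828 on the minus strand (Irgm), chr10:42874797-42875096 on the plus strand (Igtp), chr2:234005477-234005776 on the plus strand (Gbp2) and chr20:4668494-4668793 on the minus strand (Tap1).
Irgm: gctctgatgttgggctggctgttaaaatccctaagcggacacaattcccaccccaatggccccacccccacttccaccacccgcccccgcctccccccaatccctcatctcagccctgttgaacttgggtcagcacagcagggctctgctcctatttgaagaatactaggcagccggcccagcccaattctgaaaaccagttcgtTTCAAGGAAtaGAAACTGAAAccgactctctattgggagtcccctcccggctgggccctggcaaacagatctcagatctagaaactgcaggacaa
Igtp: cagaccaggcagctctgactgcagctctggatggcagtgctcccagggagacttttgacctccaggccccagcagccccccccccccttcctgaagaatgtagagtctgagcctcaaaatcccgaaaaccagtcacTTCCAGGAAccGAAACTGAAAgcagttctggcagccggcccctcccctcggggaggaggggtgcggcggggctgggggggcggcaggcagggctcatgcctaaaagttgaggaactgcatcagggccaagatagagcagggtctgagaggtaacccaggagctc
Gbp2: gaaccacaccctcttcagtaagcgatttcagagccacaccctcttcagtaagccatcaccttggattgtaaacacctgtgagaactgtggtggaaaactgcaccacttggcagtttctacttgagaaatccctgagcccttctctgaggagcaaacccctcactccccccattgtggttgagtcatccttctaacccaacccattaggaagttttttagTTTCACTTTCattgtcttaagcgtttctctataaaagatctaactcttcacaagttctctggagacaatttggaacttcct
Tap1: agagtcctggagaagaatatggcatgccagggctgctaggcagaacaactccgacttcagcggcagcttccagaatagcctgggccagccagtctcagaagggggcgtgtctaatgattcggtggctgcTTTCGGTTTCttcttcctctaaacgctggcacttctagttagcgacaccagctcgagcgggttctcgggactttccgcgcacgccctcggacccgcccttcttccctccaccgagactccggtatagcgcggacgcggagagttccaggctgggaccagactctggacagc
In Irgm the GAS match began at base 206 and the ISRE match at base 217, and in Igtp at bases 137 and 148, so both GTPase genes had the elements side by side without overlap. Gbp2 had an ISRE match at base 220 and Tap1 at base 130, and neither had a GAS match. Of the 36 symbols of the interferon-γ list, 29 had a promoter window, of which 10 held a GAS and 15 an ISRE match. Over all 27457 windows of this length the shares were 8.68% for GAS and 3.77% for ISRE. A match is a description of the letters and no evidence of binding.

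Total counts were 49155556 to 83319267 in the T2DM and 46824314 to 76835895 in the DJB libraries. The label "subcutaneous adipocyte" was checked against marker genes. Adipocyte markers were present in every library, with a mean log2 CPM (counts scaled to library size, with TMM factors) over 19 markers of 5.33 to 7.73 in T2DM and 2.83 to 8.99 in DJB. The lowest value was DJB 2 and the highest DJB 5. Mammary epithelium was abundant in T2DM 1 to 4, where 15 milk genes took 10.9%, 11.4%, 8.84% and 18.9% of all counts, and nearly lacking in T2DM 5 with 0.0598%. In DJB libraries 1 to 5 the milk gene share was 2.28%, 0.572%, 0.0804%, 7.94% and 0.960%. The mammary score, the mean log2 CPM of 30 alveolar and ductal markers, was 6.89, 6.93, 6.47, 7.28 and 0.92 in T2DM and 4.93, 3.37, 1.27, 6.65 and 4.22 in DJB. By this score DJB 4 lay in the range of T2DM 1 to 4, although its milk gene share was below theirs. T2DM 5 and DJB 3 lay together at the bottom. The visceral libraries lay between -1.98 and 3.81.

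Lymphocyte markers were highest in DJB 2, followed by DJB 4 and T2DM 2, which were also rich in mammary signal. The lymphoid score, the mean log2 CPM of 21 B, T and NK cell markers, was 1.07, 3.06, 1.30, 1.25 and 0.85 in T2DM and 0.93, 7.16, 1.30, 4.03 and 0.60 in DJB. Cd79a, a subunit of the B cell receptor, had 412 CPM in DJB 2, 69.2 in DJB 4, 14.1 in T2DM 2 and 1.11 to 2.48 in the other libraries, and Ms4a1 (CD20) was at 0 in T2DM 5 and DJB 1. DJB 2 therefore combined the highest lymphocyte with the lowest adipocyte signal. Mitochondrially encoded genes took 5.57% to 16.5% of counts in T2DM (median 8.96%) and 11.9% to 34.2% in DJB (median 22.6%). The ranges overlapped only through T2DM 1 and DJB 1, so this share largely went with the comparison itself. DJB 4, the highest, also had 1.15% of its counts on mitochondrial ribosomal RNA genes, against 0.198% to 0.343% in the other DJB libraries. The T2DM libraries had 0.0544% to 0.195%, below every DJB library. In bulk tissue, fewer cells of a type and less RNA per cell cannot be told apart.

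**Figure D1:**
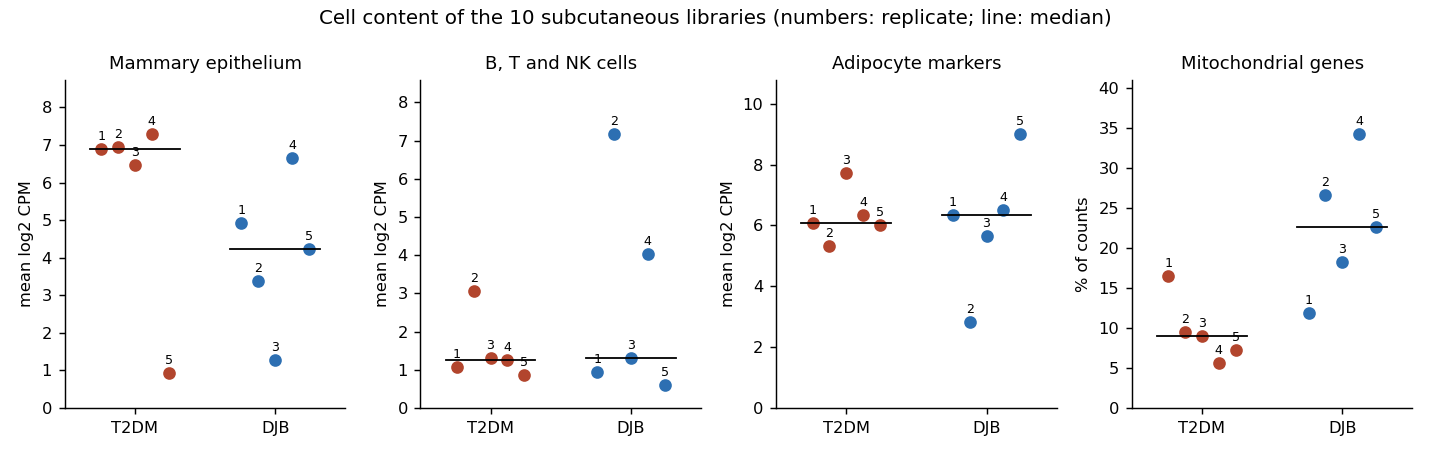
Content of the 10 subcutaneous libraries, as mean log2 CPM of mammary epithelial, lymphocyte and adipocyte markers and as the percentage of counts on mitochondrially encoded genes, with 1 point per library, its replicate number and the group median as a line. T2DM 5 and DJB 3 nearly lacked mammary signal (0.92 and 1.27), DJB 2 had the highest lymphoid score (7.16) and the lowest adipocyte score (2.83), and DJB 4 the highest mitochondrial share (34.2%).

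Without content covariates, in the fit of all 22 libraries, no gene passed an adjusted p of 0.05 by edgeR's quasi-likelihood test (0 of 14019, 0%). The smallest adjusted p was 0.115, for Ido1. At an unadjusted p under 0.05 there were 1259 genes (8.98%), of which 624 (4.45%) were higher and 635 (4.53%) lower after DJB. DESeq2 on the same counts called 168 genes, 81 higher and 87 lower, and limma on log2(FPKM + 1) called 0, with 134 higher and 795 lower at an unadjusted p under 0.05. In 56 genes (0.399%) every DJB library lay above every T2DM library, and in 128 (0.913%) every DJB library lay below. In the 10 subcutaneous libraries alone, without covariates, 0 of 13186 genes were called (smallest adjusted p 0.621). There, 1040 stood at an unadjusted p under 0.05, 452 higher and 588 lower. With the mammary and lymphoid scores as covariates in the 10 libraries, 0 of 13186 genes were called, and 603 (4.57%) stood at an unadjusted p under 0.05. Of the 603, 242 (1.84%) were higher and 361 (2.74%) lower. Of the 603, 106 higher and 200 lower were shared with the 1259 of the fit of all 22 libraries. Without DJB 2, 29 genes (0.207%) passed the adjusted threshold, and 797 (5.69%) the unadjusted one, 242 higher (1.73%) and 555 lower (3.96%). All 23 of the 29 that were higher were rows with locus names in place of gene symbols, and the 6 that were lower were Ido1, Irgm, Igtp, Gbp2, Tap1 and Cmahp. The adjusted p depends on the ranks of all called rows together, so the 23 rows bear on the calls of the 6 genes. Without DJB 2 and DJB 4 together, 0 genes were called, and the smallest adjusted p was 0.28.

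**Figure D2:**
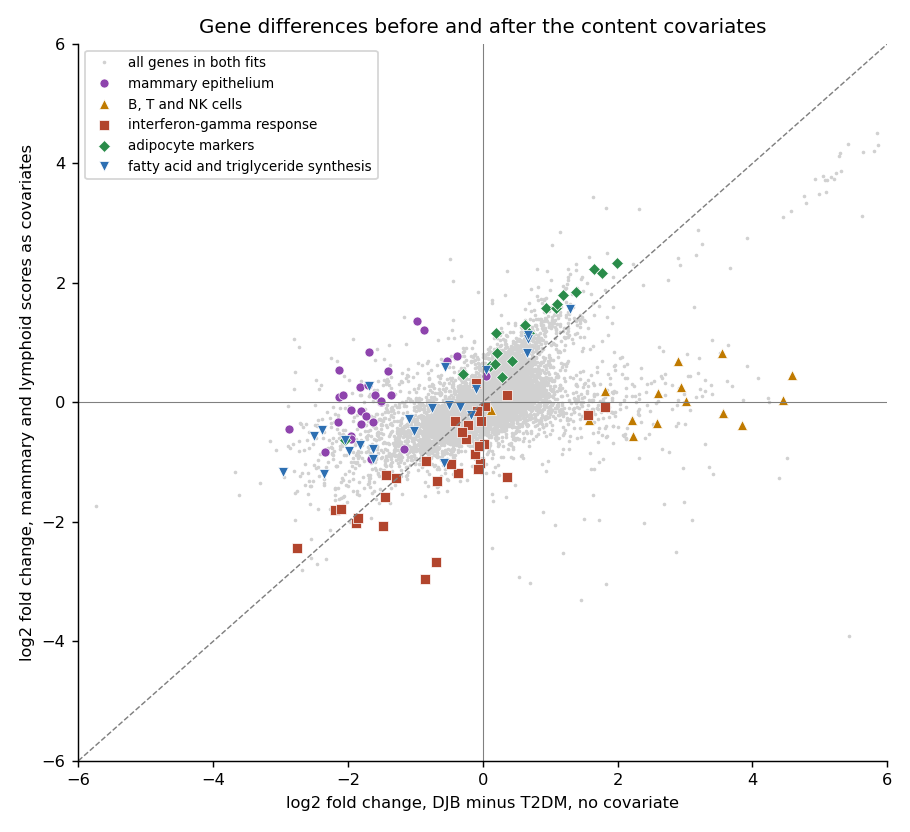
Log2 fold change (DJB minus T2DM) of each of 13186 genes in the fit without covariates (22 libraries, x axis) and with the mammary and lymphoid scores as covariates (10 libraries, y axis); 6 genes lie beyond the axes. Lymphocyte markers spread along x and sit near 0 on y, mammary markers move from below 0 to around it, and the interferon-γ list stays below 0 on y for most of its members; the scores were built from the lymphocyte and mammary markers themselves.

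Most genes of the interferon-γ response had lower levels after DJB, although none passed the adjusted threshold with all libraries in the fit. In the fit of all libraries, 27 of the 33 tested list members had a log2 fold change below 0 (median -0.38), against 6287 of all 14019 genes (median 0.05). At an unadjusted p under 0.05, 10 members were lower and 2 higher, against 4.53% and 4.45% of all genes. In 4 members, against 0.913% of all genes, every DJB library lay below every T2DM library. The 2 higher ones, Irf8 and Ciita, are also expressed by B cells. With both content scores as covariates the median was -1.02 over 32 members (-0.01 over all genes), with 14 lower and 0 higher at an unadjusted p under 0.05. Over all genes 2.74% were lower and 1.84% higher in the covariate fit. Without DJB 2 the median was -1.14 (-0.01 over all genes), with 19 lower, 0 higher and 5 called. Over all genes 3.96% were lower, 1.73% higher and 0.207% called in that fit. DJB 2 was itself the DJB library with the highest mean log2 CPM of this list, at 6.19. The other DJB libraries had 4.58 to 5.06 and the T2DM libraries 5.34 to 6.89, so its removal widens the difference. DJB 2 also had the highest lymphoid score (7.16), so the covariate fit is not independent of its removal. With DJB 2 left out, 12 of the 33 members had every remaining DJB library below every T2DM library, against 206 of all 14019 genes (1.47%). None of these members and 129 genes (0.92%) had every remaining DJB library above. These counts describe the list and do not test it.

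The immunity-related GTPases Irgm and Igtp, of a family that attacks the vacuoles of intracellular parasites and bacteria in rodents, separated the groups without overlap. Irgm stood at 60.4, 54.3, 97.8, 116 and 58.3 CPM in T2DM 1 to 5 and at 30.3, 40.2, 31.4, 25.1 and 32.0 CPM in DJB 1 to 5. Every DJB library lay below every T2DM library, and the log2 fold change was -1.28 ± 0.24 (SE; adjusted p = 0.123). Igtp, another GTPase of the family, stood at 131, 99.2, 278, 286 and 105 CPM in T2DM and at 48.3, 85.1, 49.8, 25.5 and 35.1 CPM in DJB. Again the groups did not overlap, and DJB 2 was the DJB library closest to the T2DM range (log2 fold change -1.88 ± 0.42, adjusted p = 0.123). Without DJB 2 both passed the test (log2 fold change -1.39 for Irgm and -2.20 for Igtp, adjusted p = 0.0423 for each). The same adjusted p was given to locus-name rows called beside them, and without DJB 2 and DJB 4 together 0 genes were called.

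Guanylate-binding proteins are large interferon-induced GTPases that act on the same vacuoles. Gbp2 stood at 264, 150, 691, 312 and 181 CPM in T2DM and at 99.6, 192, 120, 73.0 and 98.6 CPM in DJB. DJB 2 was the 1 DJB library inside the T2DM range, and without it the log2 fold change went from -1.45 ± 0.34 (adjusted p = 0.144) to -1.72 (adjusted p = 0.0423). Gbp5 likewise had DJB 2 alone inside the T2DM range, with 148, 67.1, 472, 204 and 64.0 CPM in T2DM and 42.2, 103, 52.6, 27.8 and 39.0 CPM in DJB (log2 fold change -1.85 ± 0.52, adjusted p = 0.244). Gbp1 overlapped between the groups, with 2.40 to 40.8 CPM in T2DM and 1.02 to 6.44 CPM in DJB. Gbp1, Gbp2, Gbp5, Tap1, Il15ra, Batf2, Irf1, Cxcl9, Cxcl10 and Ifngr1 are given after their values were seen.

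Wars1, the cytosolic tryptophan tRNA ligase, and Ido1, which degrades tryptophan, are both strongly interferon-γ-inducible. Wars1 stood at 202, 101, 632, 196 and 125 CPM in T2DM and at 56.3, 47.7, 69.1, 47.4 and 71.5 CPM in DJB, with DJB 2 among the low libraries. The log2 fold change was -2.10 ± 0.45 (adjusted p = 0.123) and -2.05 without DJB 2 (adjusted p = 0.157). Ido1 was far more uneven. It stood at 11.7, 2.34, 84.6, 15.5 and 0.402 CPM in T2DM and at 0.392, 0.199, 0.349, 0.131 and 0.292 CPM in DJB. T2DM 5, the mammary-poor library, was level with the DJB libraries, so the log2 fold change of -6.37 ± 1.09 rests on T2DM 1 to 4. Ido1 did not pass the filter on low values in the fits of the 10 libraries alone and has no covariate value.

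Among antigen-processing, regulator and chemokine genes of the response, Tap1, Irf1 and Cxcl10 had larger log2 fold changes without DJB 2. Tap1, a subunit of the peptide transporter that loads MHC class I, stood at 183, 123, 290, 199 and 114 CPM in T2DM and at 67.5, 286, 82.4, 69.2 and 62.4 CPM in DJB (log2 fold change -0.68 ± 0.37, adjusted p = 0.642; without DJB 2 -1.38, adjusted p = 0.0423). DJB 2 lay within the T2DM range and the other DJB libraries below it. Irf1, a factor that carries the response onward, stood at 124, 120, 253, 160 and 111 CPM in T2DM and at 63.2, 117, 103, 56.8 and 88.2 CPM in DJB, with DJB 2 alone reaching the T2DM range (log2 fold change -0.84 ± 0.27, adjusted p = 0.286). Il15ra, the receptor chain that presents interleukin-15, stood at 6.02, 4.87, 10.5, 8.58 and 4.32 CPM in T2DM and at 2.27, 3.14, 3.34, 3.77 and 2.24 CPM in DJB, without overlap (log2 fold change -1.22 ± 0.35, adjusted p = 0.244). Il15ra is not a member of the interferon-γ list. Batf2, a factor induced in macrophages, had 0.939 to 9.99 CPM in T2DM and 0.186 to 1.09 CPM in DJB. The T cell-attracting chemokine Cxcl9 stood at 422, 136, 916, 300 and 122 CPM in T2DM and at 114, 125, 248, 96.5 and 115 CPM in DJB, with overlap. Cxcl10 had 75.7 CPM in DJB 2, 2.40 to 6.04 CPM in the other DJB libraries and 9.25 to 74.7 CPM in T2DM. The receptor chain Ifngr1 overlapped, with 211 to 361 CPM in T2DM and 139 to 264 CPM in DJB (log2 fold change -0.42 ± 0.24, adjusted p = 0.675).

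**Figure D3:**
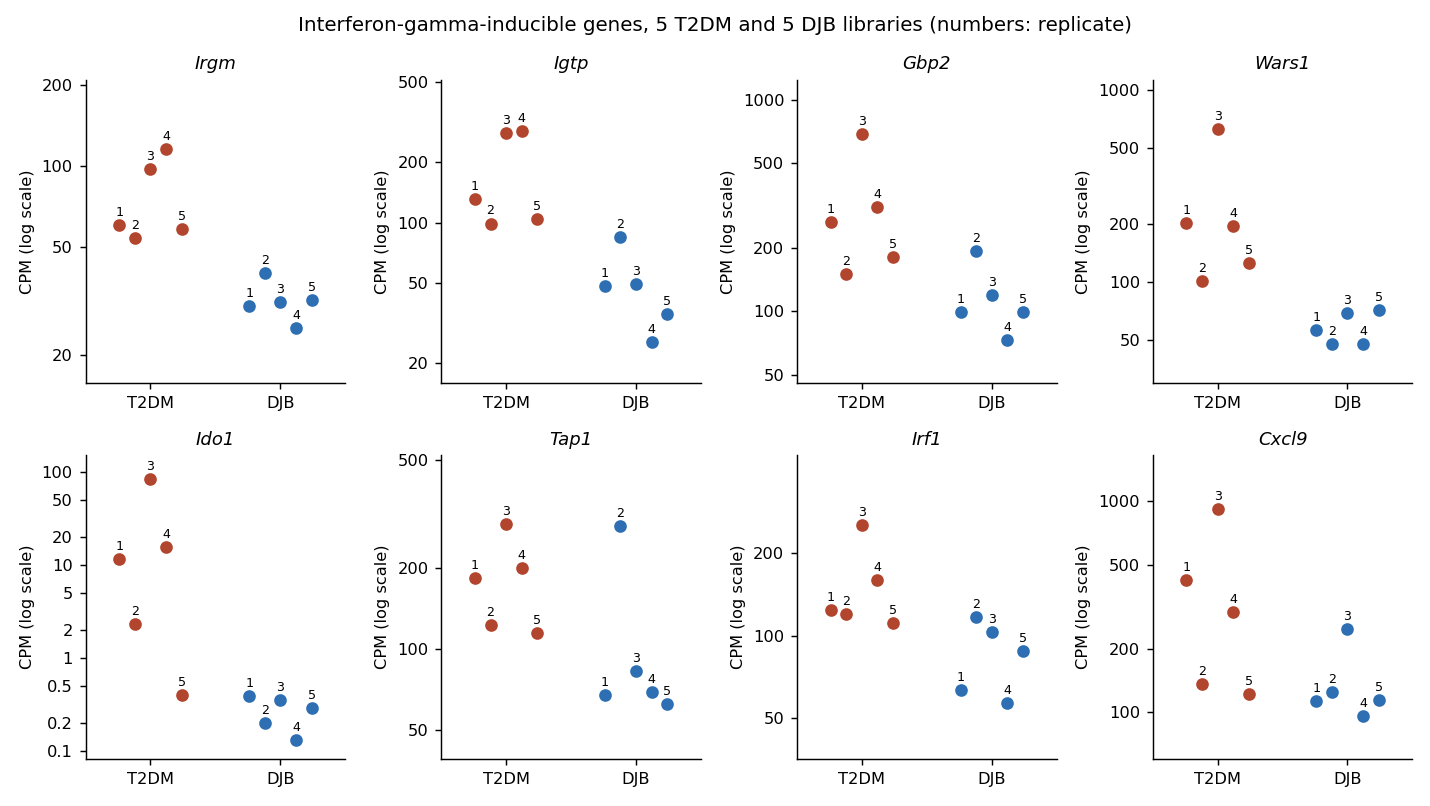
CPM (log scale) of 8 interferon-γ-inducible genes in the 5 T2DM and 5 DJB subcutaneous libraries, with 1 point per library and its replicate number. Irgm, Igtp, Wars1 and Ido1 do not overlap between the groups; DJB 2 stands inside the T2DM range for Gbp2, Tap1 and Irf1, and T2DM 5 is level with the DJB libraries for Ido1.

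Libraries of like mammary content can be set side by side. T2DM 5 and DJB 3, both nearly free of mammary signal and with lymphoid scores of 0.85 and 1.30, differed in Irgm (58.3 and 31.4 CPM), Igtp (105 and 49.8) and Wars1 (125 and 69.1). DJB 4, with a mammary score inside the range of T2DM 1 to 4 but a lymphoid score above it, had 25.1 CPM of Irgm against 54.3 to 116 and 25.5 CPM of Igtp against 99.2 to 286. Other members went otherwise: between T2DM 5 and DJB 3, Cxcl9 was higher in the DJB library (122 and 248 CPM), and Ido1 (0.402 and 0.349) and Irf1 (111 and 103) were close. Over the whole list, 23 of 33 members were lower in DJB 3 than in T2DM 5, against 48.5% of all genes, and 22 of 33 were lower in DJB 4 than in each of T2DM 1 to 4, against 28.5%. These are single libraries, and no test was made. With the covariates the log2 fold changes were -1.27 for Irgm, -2.02 for Igtp, -1.58 for Gbp2, -1.78 for Wars1 and -1.32 for Tap1, each at an unadjusted p under 0.05. With the mitochondrial share as covariate the list median was -0.82 (0.00 over all genes), and 2 members were lower at an unadjusted p under 0.05, where 3.87% of all genes passed, 1.12% higher and 2.75% lower. The part of the mitochondrial share in these differences was not tested beyond this fit. Type I interferon genes, which share many targets, had a median of 0.01 over 29 members with 0 higher and 2 lower at an unadjusted p under 0.05. Without DJB 2 the median was -0.66, with 26 of 29 members below 0, beside 29 of 33 interferon-γ members. Of the 29, 10 were lower, against 3.96% of all genes. Ifit1 stood at 46.4 and 25.8 CPM in T2DM 4 and 5 and at 0 to 1.64 CPM in the other 8 libraries, and Rsad2 had 8.44 to 104 CPM in T2DM and 10.6 to 38.3 CPM in DJB.

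Among the 12 lower genes with the smallest p, 8 are not members of the interferon-γ list. Cpm, a membrane carboxypeptidase, stood at 20.5, 26.6, 23.4, 17.8 and 6.39 CPM in T2DM and at 5.44, 2.73, 4.37, 6.25 and 2.85 CPM in DJB. All DJB libraries lay below all T2DM libraries, by a narrow margin against T2DM 5 (log2 fold change -2.13 ± 0.45, adjusted p = 0.123, and -1.62 with the covariates). Cmahp, which is annotated from the gene of the sialic acid hydroxylase CMAH, stood at 141, 159, 316, 584 and 132 CPM in T2DM and at 34.2, 103, 21.9, 52.8 and 30.3 CPM in DJB (log2 fold change -2.46 ± 0.55, adjusted p = 0.123). It did not overlap and passed the test without DJB 2 (log2 fold change -2.94, adjusted p = 0.0423). Gusb, the lysosomal β-glucuronidase, stood at 124, 105, 81.9, 131 and 67.7 CPM in T2DM and at 61.5, 35.6, 47.8, 55.7 and 34.2 CPM in DJB (log2 fold change -1.12 ± 0.25, adjusted p = 0.123). Zdhhc9, a palmitoyltransferase, and Agtrap, which binds the angiotensin II receptor, also showed no overlap, with 38.4 to 71.5 against 14.8 to 35.0 CPM and 43.2 to 63.6 against 19.9 to 36.4 CPM. Tf (transferrin, the iron carrier), Tprn (taperin) and the zinc-finger gene Zfp395 overlapped through T2DM 5. Tf stood at 1311, 2162, 2277, 4292 and 832 CPM in T2DM and at 923, 139, 301, 570 and 455 CPM in DJB. All 11 of the 12 genes that could be fitted with the covariates kept an unadjusted p under 0.05 in the same direction, and all 12 did without DJB 2. With the mitochondrial share as covariate 8 of 11 did, and Igtp, Zdhhc9 and Tf did not. DESeq2 called all 12. Over all genes, 2.74% were lower at that threshold with the covariates and 3.96% without DJB 2. The 12 genes were chosen by their p in these same libraries, so these fits are no independent test of them.

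Genes of fatty acid synthesis were high in the mammary-rich libraries of both groups. Of 25 tested genes of fatty acid and triglyceride synthesis, 20 had a log2 fold change below 0 (median -0.76). At an unadjusted p under 0.05, 9 were lower and 0 higher, against 4.53% and 4.45% of all genes. With both content scores as covariates the median was -0.25, with 4 of 24 lower, against 2.74% of all genes. Fads1, the Δ5 desaturase of polyunsaturated fatty acids, stood at 1968, 1227, 899, 3104 and 183 CPM in T2DM and at 442, 69.6, 91.9, 708 and 125 CPM in DJB. The highest DJB library was the mammary-rich DJB 4 and the lowest T2DM library the mammary-poor T2DM 5 (log2 fold change -2.36 ± 0.63, adjusted p = 0.226, and -1.19 with the covariates). Fads2, the Δ6 desaturase, stood at 799, 524, 306, 1117 and 20.9 CPM in T2DM and at 140, 18.3, 18.8, 150 and 28.6 CPM in DJB. Acly, which makes cytosolic acetyl-CoA from citrate, stood at 597, 413, 385, 1030 and 123 CPM in T2DM and at 187, 108, 106, 247 and 176 CPM in DJB (log2 fold change -1.63 ± 0.48, adjusted p = 0.244, and -0.78 with the covariates). In T2DM 5 and DJB 3 Acly was nearly level, at 123 and 106 CPM. In DJB 4 it was lower than in each of T2DM 1 to 4, at 247 against 385 to 1030 CPM. The same held for Fads1 (708 against 899 to 3104 CPM) and Fads2 (150 against 306 to 1117 CPM). It also held for the mammary gene Btn1a1 (385 against 753 to 2226 CPM) and for 28.5% of all genes. Fads1, Fads2 and Acly kept an unadjusted p under 0.05 with the covariates. Srebf1, the transcription factor of lipogenesis, had 56.9 to 1136 CPM in T2DM and 50.4 to 281 CPM in DJB, and Thrsp (Spot 14) 88.9 to 6183 CPM and 31.5 to 2484 CPM. Plin2, which coats lipid droplets in many cells and milk fat globules, stood at 1031, 903, 673, 1908 and 82.1 CPM in T2DM and at 333, 111, 138, 640 and 305 CPM in DJB, and its log2 fold change went from -1.59 to -0.19 with the covariates.

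The milk genes followed the mammary score by construction. Csn1s1, the αs1-casein, stood at 82811, 78631, 68724, 172134 and 473 CPM in T2DM and at 15361, 4870, 570, 87633 and 6616 CPM in DJB, and Btn1a1, a milk fat globule protein, at 1541, 1264, 753, 2226 and 5.27 CPM and at 301, 39.2, 3.63, 385 and 58.7 CPM. The ductal genes Krt8 and Cldn4 had 5.48 to 530 against 3.36 to 312 CPM and 2.47 to 346 against 1.25 to 110 CPM. Over the lists, 14 of 14 alveolar and 15 of 16 ductal genes had a log2 fold change below 0 (medians -1.75 and -1.68). At an unadjusted p under 0.05, 3 alveolar and 0 ductal genes were lower, against 4.53% of all genes. Erbb3, Acot1 and Glul, chosen after their values were seen, and Tgfb3 were high in the mammary-rich T2DM libraries and kept an unadjusted p under 0.05 with the covariates. Erbb3, a neuregulin receptor, stood at 114, 103, 121, 261 and 69.3 CPM in T2DM and at 48.8, 8.03, 29.2, 65.3 and 18.4 CPM in DJB, without overlap. Acot1, an acyl-CoA thioesterase, had 1.71 to 39.5 against 1.37 to 7.02 CPM, and Glul, the glutamine synthetase, 1000 to 3870 against 304 to 1654 CPM. Tgfb3, a TGF-β ligand and a member of the extracellular matrix list, stood at 349, 344, 173, 304 and 76.5 CPM in T2DM and at 89.5, 15.4, 30.4, 148 and 23.4 CPM in DJB (log2 fold change -2.02 ± 0.64, adjusted p = 0.281, and -1.38 with the covariates). Slc27a1, a fatty acid transport protein, separated the groups fully, with 80.3, 67.4, 111, 184 and 59.4 CPM in T2DM and 41.3, 17.0, 33.2, 36.7 and 37.4 CPM in DJB (log2 fold change -1.60 ± 0.38, adjusted p = 0.144, and -1.11 with the covariates).

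**Figure D4:**
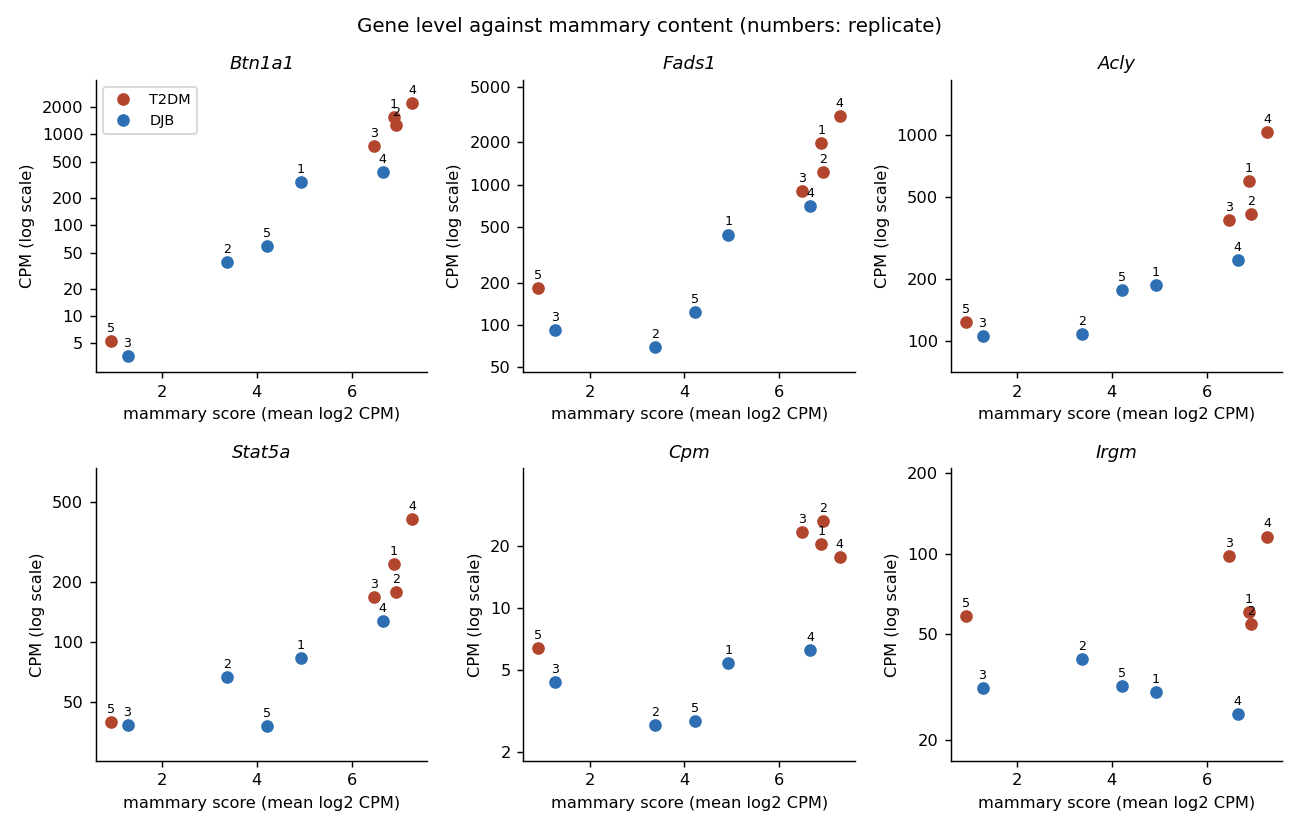
CPM (log scale) of 6 genes against the mammary score (mean log2 CPM of 30 markers) in T2DM and DJB libraries, with replicate numbers. The milk fat globule gene Btn1a1, itself part of the score, and Fads1, Acly and Stat5a lie along the score in both groups, whereas Irgm lies between 54.3 and 116 CPM in T2DM and between 25.1 and 40.2 CPM in DJB at any score; Cpm separates most widely at scores above 6.

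Over all 26 fits made, 65 genes (0.464% of those tested) kept an unadjusted p under 0.05 in the same direction, 63 lower and 2 higher after DJB. The lower ones include Irgm, Wars1, Cpm, Gusb, Cmahp, Tprn, Zfp395, Agtrap, Slc27a1, Acot1, Fads1, Fads2, Acly, Stat5a, Il15ra, Glul, Erbb3 and Tgfb3. The 2 higher ones, named after their values were seen, are Tmem184c, a membrane protein, and Fam167a. Tmem184c stood at 14.6, 15.2, 13.5, 9.76 and 15.8 CPM in T2DM and at 20.7, 23.6, 22.6, 18.6 and 22.6 CPM in DJB, without overlap (log2 fold change 0.65 ± 0.24, adjusted p = 0.36). Fam167a stood at 4.03, 3.45, 3.62, 2.87 and 5.15 CPM in T2DM and at 25.4, 10.6, 17.5, 5.44 and 4.33 CPM in DJB, where DJB 5 lay inside the T2DM range. Genes without a value in some fit, such as Ido1 in the fits of the 10 libraries alone, could not be among the 65. The 26 fits share libraries, so this count is a description and no further test. The fit of all libraries was balanced, with 624 higher and 635 lower at that threshold. Of these, 7 higher and 144 lower kept it with the mitochondrial share as covariate, and 122 and 502 with limma on log2(FPKM + 1). The median of all genes was -0.07 in that limma fit and -0.10 with 0.1 added. The split of 63 to 2 thus depends on which fits are required.

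Of the 12 higher genes with the smallest p, 11 had their highest level in the lymphocyte-rich library DJB 2, with DJB 4 next in 9. None of the 12 is on the lymphocyte lists. Cnr2, the cannabinoid receptor of immune cells, stood at 4.19, 8.02, 4.22, 2.36 and 2.73 CPM in T2DM and at 4.86, 135, 4.43, 27.0 and 5.16 CPM in DJB. Evl, an actin regulator, had 674 CPM in DJB 2, 78.0 in DJB 4, 21.3 to 27.3 in the other DJB libraries and 11.6 to 37.1 in T2DM. The same libraries led for Stap1 and Grap, adaptors of lymphocyte receptors, for Fcho1, a factor of clathrin-coated pits, for Siglec10, a B cell inhibitory receptor, and for Tmc8 (88.6, 181, 192, 147 and 148 CPM in DJB 2, in that order). Of the 12 genes, 11 could be fitted with the covariates, of which 6 kept an unadjusted p under 0.05, and 9 of 12 kept it without DJB 2. DESeq2 called 11 of them. These 12 genes too were chosen by their p in the same libraries. As lists, 5 of 13 B cell markers and 16 of 21 T and NK cell markers passed the filter on low values. The 5 B cell markers had a median log2 fold change of 4.58, with 5 higher at an unadjusted p under 0.05. Without DJB 2 this went to 2.19 with 2 higher. The T and NK cell markers had a median of 2.98 with 14 of 16 higher, and of 0.37 with 0 higher without DJB 2. Over all genes 4.45% were higher, and 1.73% without DJB 2. Lck, the T cell receptor kinase, stood at 371 CPM in DJB 2 and 6.09 to 27.5 CPM in the other 9 libraries, Tcf7 at 289 CPM against 3.65 to 26.9 CPM, and the lymph node chemokine Ccl21 at 893 CPM, with 241 CPM in DJB 4 and 11.8 to 78.3 CPM in the others. MHC class II genes had a median of 1.17 with 3 of 12 higher and of 0.05 without DJB 2. RT1-DOb, the B cell-expressed DO chain, had 183 CPM in DJB 2 and 1.91 to 35.1 CPM in the other libraries.

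Of the 12 higher genes, 4 had no overlap between the groups. St3gal6, a sialyltransferase that builds selectin ligands, stood at 9.87, 11.6, 9.90, 5.09 and 7.86 CPM in T2DM and at 12.1, 39.5, 15.9, 21.99 and 22.5 CPM in DJB. Every DJB library lay above every T2DM library, though DJB 1 only just (log2 fold change 1.34 ± 0.30, adjusted p = 0.123; 1.02 without DJB 2, adjusted p = 0.277; 0.50 with the mitochondrial share as covariate). Pdcd1lg2 (PD-L2, a ligand that restrains T cells) stood at 1.68, 1.48, 2.04, 0.401 and 0.328 CPM in T2DM and at 2.44, 8.24, 6.35, 4.58 and 6.30 CPM in DJB, also without overlap (log2 fold change 2.23 ± 0.56, adjusted p = 0.189; 2.32 with the content covariates and 1.40 with the mitochondrial share). Tcf3, the E-protein of lymphocyte development, and Rasgrp2, an activator of the small GTPase RAP1, did not overlap either, with 27.8 to 41.8 against 42.0 to 172 CPM and 7.09 to 19.0 against 20.8 to 204 CPM. Their highest level was in DJB 2, without which the log2 fold change went from 1.06 to 0.54 for Tcf3 and from 2.07 to 0.86 for Rasgrp2, and with the content covariates neither had an unadjusted p under 0.05. With the mitochondrial share as covariate, 0 of the 11 higher genes that could be fitted kept an unadjusted p under 0.05. Serpina12 (vaspin, an insulin-sensitizing adipokine) stood at 0.126, 0, 0.165, 0 and 0.268 CPM in T2DM and at 4.58, 0.372, 0.121, 0.366 and 19.3 CPM in DJB. Its log2 fold change of 5.45 ± 1.39 (adjusted p = 0.207) rests on DJB 5 and DJB 1, and DJB 3 lay inside the T2DM range.

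Adipocyte genes differed more among the DJB libraries than between the groups. Adipoq, which encodes adiponectin, stood at 191, 102, 638, 166 and 218 CPM in T2DM and at 334, 79.5, 116, 322 and 2576 CPM in DJB. Lep (leptin) stood at 9.87, 4.37, 79.6, 13.3 and 11.4 CPM in T2DM and at 26.7, 0.598, 4.22, 15.7 and 325 CPM in DJB. DJB 5, the library with the highest adipocyte score, set both means, and without it the log2 fold changes went from 1.38 ± 0.77 (adjusted p = 0.646) to -0.31 for Adipoq and from 1.65 ± 1.09 (adjusted p = 0.747) to -1.01 for Lep. Of the 19 tested adipocyte markers, 17 had a log2 fold change above 0 (median 0.68), but 0 were higher at an unadjusted p under 0.05 and 1, Thrsp, lower. With both content scores as covariates the median was 1.23 (-0.01 over all genes) and 5 of 18 were higher, against 1.84% of all genes. Without DJB 2 the median was 0.96, with 18 of 19 above 0 and 4 higher, against 1.73% of all genes. Among genes of fat cells and their capillaries, Fabp4 had 806 to 1873 CPM in T2DM and 93.8 to 6750 in DJB, the hormone-sensitive lipase Lipe 171 to 547 and 53.3 to 1053, the glycerol channel Aqp7 18.2 to 91.2 and 3.60 to 255, and Gpihbp1, which carries lipoprotein lipase on capillary endothelium, 47.9 to 188 and 10.0 to 487, with DJB 2 the lowest each time. Fabp4 and Lipe were added after their values were seen.

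No gene of the growth hormone and insulin axis, which the study's title names for visceral fat, passed the adjusted threshold, as for all genes. Of 22 growth hormone and IGF signalling genes, 1 was higher and 2 lower at an unadjusted p under 0.05 (median log2 fold change -0.05), of 13 genes of adiponectin assembly, reception and signalling 0 and 2 (median -0.09), and of 30 insulin signalling genes 1 and 2 (median -0.10), against 8.98% of all genes in either direction. The growth hormone receptor Ghr stood at 88.2, 79.3, 235, 136 and 122 CPM in T2DM and at 130, 8.82, 97.0, 94.8 and 278 CPM in DJB (log2 fold change -0.12 ± 0.51, adjusted p = 0.99). Its kinase Jak2 lay between 74.9 and 105 CPM in all 10 libraries (log2 fold change -0.09 ± 0.26). Stat5a, a factor of both growth hormone and prolactin signalling, stood at 246, 177, 168, 409 and 39.7 CPM in T2DM and at 82.9, 67.0, 38.4, 127 and 38.1 CPM in DJB. Its log2 fold change was -1.56 ± 0.45 (adjusted p = 0.244) and -0.84 with the covariates, where it kept an unadjusted p under 0.05. In the mammary-poor pair T2DM 5 and DJB 3 the levels were 39.7 and 38.4 CPM. The mammary-rich DJB 4 had 127 CPM, against 168 to 409 CPM in T2DM 1 to 4, and 28.5% of all genes were likewise lower there. Stat5b lay between 53.5 and 92.6 CPM in T2DM and 43.9 and 90.0 CPM in DJB. The STAT5 target Cish followed the mammary-rich libraries, with 72.4, 75.2, 56.6, 203 and 9.14 CPM in T2DM and 38.8, 13.7, 5.63, 81.0 and 21.0 CPM in DJB, while the feedback inhibitor Socs2 (6.63 to 23.5 and 12.4 to 30.4 CPM) and the growth factor Igf1 (14.8 to 90.9 and 23.3 to 152 CPM) overlapped.

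The adiponectin receptors overlapped between the groups, with 138 to 194 CPM in T2DM and 102 to 187 CPM in DJB for Adipor1 (log2 fold change -0.24 ± 0.19, adjusted p = 0.825) and 18.6 to 40.3 and 4.23 to 58.8 CPM for Adipor2 (0.07 ± 0.48, adjusted p = 0.997). Insr, the insulin receptor, stood at 75.1, 68.2, 72.9, 85.2 and 33.9 CPM in T2DM and at 48.3, 7.06, 34.8, 24.4 and 43.3 CPM in DJB. T2DM 5 alone reached into the DJB range (log2 fold change -1.09 ± 0.40, adjusted p = 0.361, and -0.51 with the covariates). Slc2a4 (GLUT4, the insulin-responsive glucose carrier of fat and muscle) stood at 29.7, 29.0, 29.3, 11.3 and 25.3 CPM in T2DM and at 26.8, 1.93, 43.9, 15.8 and 63.8 CPM in DJB (log2 fold change 0.29 ± 0.56, adjusted p = 0.967). The general carrier Slc2a1 (GLUT1) had 9.74 to 144 CPM in T2DM and 10.8 to 51.8 CPM in DJB. Pparg, the master factor of fat cell formation, had 28.8 to 96.9 CPM in T2DM, 9.06 CPM in DJB 2 and 73.0 to 222 CPM in the other DJB libraries (log2 fold change 0.86 ± 0.51, adjusted p = 0.687, and 1.15 without DJB 2, adjusted p = 0.601). Pde3b, the phosphodiesterase by which insulin restrains lipolysis, had 129 CPM in DJB 5 and 10.4 to 33.1 CPM in the other 9 libraries. Ucp1, the uncoupling protein of brown fat, was above 1 CPM in 4 libraries, T2DM 4 and 5 and DJB 1 and 3, and at most 0.159 CPM in the others. The incretin receptor Gipr had 1.24 to 22.6 CPM in T2DM and 1.78 to 26.9 CPM in DJB.

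Other lists of energy metabolism were counted in the same way. Over all genes, 4.45% were higher and 4.53% lower at an unadjusted p under 0.05. Of all 14019 genes, 7732 had a log2 fold change above 0 and 6287 below 0. Of 60 nuclear genes of oxidative phosphorylation, 0 stood at an unadjusted p under 0.05 (median log2 fold change 0.12), and the same held for 21 tricarboxylic acid cycle genes (median 0.08) and 14 thermogenic genes (median 0.10). Of 25 fatty acid oxidation genes, 21 had a log2 fold change below 0 (median -0.34), and 1, Cpt1a, which admits fatty acids to the mitochondrion, was lower at an unadjusted p under 0.05 (83.4 to 252 CPM in T2DM and 31.0 to 129 CPM in DJB). Branched-chain amino acid breakdown had 21 tested genes, of which 18 had a log2 fold change below 0 (median -0.25) and 1 was lower. Of 25 lipolysis and lipid droplet genes 1 was higher and 1 lower, of 24 cholesterol genes 0 and 1, and of 20 genes of adipocyte differentiation 0 and 2. Without DJB 2 these counts were 4 and 1, 1 and 1, and 2 and 2, against 1.73% and 3.96% of all genes. The 35 cytosolic ribosomal protein genes all had a log2 fold change above 0 (median 0.63), with 0 at an unadjusted p under 0.05 and a median of 0.31 without DJB 2.

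Of 19 clock genes, 15 had a log2 fold change below 0 (median -0.32), and 5 were lower at an unadjusted p under 0.05, against 4.53% of all genes. Among the 5 were the clock-output factors Hlf (1.53 to 15.1 CPM in T2DM and 0.678 to 6.46 CPM in DJB) and Nfil3 (9.21 to 23.9 and 5.63 to 10.3 CPM) and the repressor Bhlhe41 (2.74 to 41.5 and 3.71 to 11.3 CPM). With the covariates 1 clock gene was lower and 1 higher. Of 19 macrophage genes, 16 had a log2 fold change below 0 (median -0.29) with 1 higher and 1 lower. The lower one, the lipopolysaccharide co-receptor Cd14, stood at 32.9, 58.7, 99.9, 50.8 and 87.5 CPM in T2DM and at 41.0, 20.8, 40.9, 50.9 and 28.0 CPM in DJB (log2 fold change -0.86 ± 0.33, adjusted p = 0.372). Of 25 endoplasmic reticulum genes 0 were higher and 2 lower, among them Xbp1, the secretory-cell factor (80.5 to 201 CPM and 45.9 to 99.99 CPM). The small heat shock gene Hspb1 had 49.3 to 72.1 CPM in T2DM, 5.51 CPM in DJB 2 and 67.3, 206, 130 and 256 CPM in DJB 1, 3, 4 and 5 (log2 fold change 1.10 ± 0.54, adjusted p = 0.565, and 1.39 without DJB 2, adjusted p = 0.169). Of 21 immediate early genes, 0 stood at an unadjusted p under 0.05. Junb, one of them, had 637 and 610 CPM in DJB 3 and 4, 135 to 257 CPM in the other DJB libraries and 121 to 293 CPM in T2DM. Of 34 extracellular matrix genes 1, Tgfb3, was lower, and of 15 glucocorticoid response genes none was on either side.

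**Figure D5:**
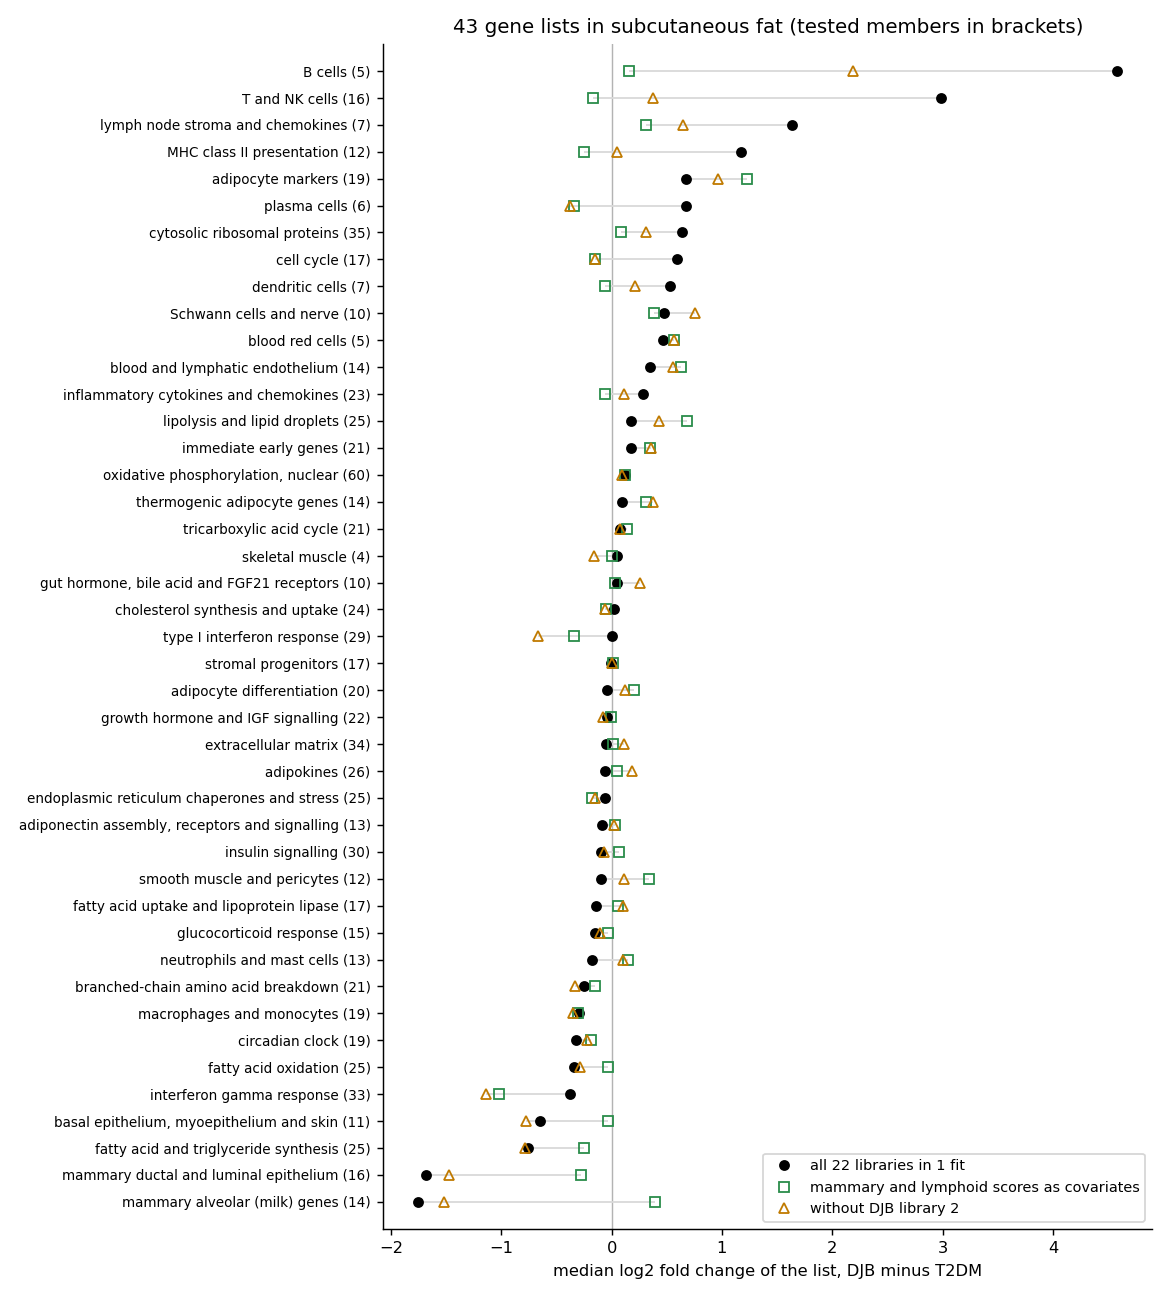
Median log2 fold change (DJB minus T2DM) of each of 43 gene lists, with the number of tested members in brackets, in the fit of all 22 libraries (circles), with the mammary and lymphoid scores as covariates in the 10 subcutaneous libraries (squares) and without DJB 2 (triangles). The B cell and T and NK cell medians move from 4.58 and 2.98 towards 0 with the covariates, in whose lymphoid score they are counted, while the interferon-γ median goes from -0.38 to -1.02 and -1.14.

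The 23 rows with locus names that were called as higher without DJB 2 were led by a single library. The level in DJB 4 was 98.2 to 344 times the T2DM mean, that in DJB 5 was 5.49 to 18.2 times it, and the higher of DJB 1 and DJB 3 was 2.16 to 7.08 times it. The deposited table types 9 of them as protein-coding and 14 as miRNA genes. Without DJB 2 and DJB 4 together, 0 genes were called, with 1084 at an unadjusted p under 0.05, 274 higher and 810 lower.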

How the data were processed

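Whole-tissue RNA of rat fat was sequenced, and the deposited table holds raw read counts and FPKM values per gene for 22 libraries, per the file headers. Adapters were trimmed with cutadapt 1.9, reads checked with FastQC and the build mRatBN7.2 used, per the submitters' processing notes; which aligner, counter and strand setting were used is not given here. From the deposited FPKM, genes reaching 1 in 5 or more libraries were kept (14019 of 24286). Counts were fitted with edgeR 4.0.16 (R 4.3.3; TMM, quasi-likelihood, Benjamini-Hochberg) in a model of 4 groups over 22 libraries, with DESeq2 1.42.0 and limma 3.58.1 as alternatives. Covariate fits used the 10 subcutaneous libraries (13186 genes), and the scores were means of marker genes, so those markers are near 0 there by construction. Log2 CPM had a prior count of 1. The common biological coefficient of variation was 0.551. Named genes were the 12 with the smallest p in each direction that have a gene symbol and a mean FPKM of at least 2, up to 4 per list by p (for mammary and lymphoid lists also by level), and 15 axis genes. The members and lists were chosen with earlier results of these data known.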

Additional observations from a re-analysis of the deposited data

Results flagged for a closer look

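Of 170 sets of 5 libraries tested for a library standing apart by Dixon's criterion, 21 had one, and chance gives about 1 in 20. In T2DM 5 the mean log2 CPM was low for alveolar (1.14, others 7.51 to 8.52), ductal (0.73, others 5.55 to 6.64) and basal epithelial genes (0.57, others 2.99 to 3.78). It was also low there for fatty acid synthesis (4.51, others 6.41 to 7.10) and adipocyte differentiation (4.96, others 5.41 to 5.56). Single genes low in T2DM 5 were Cpm (log2 CPM 2.68), Stat5b (5.74) and Insr (5.08).

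In DJB 2 the mean log2 CPM was low for endothelium (4.16, others 6.53 to 6.98), adipocyte differentiation (3.44, others 5.06 to 5.52) and glucocorticoid response genes (4.58, others 5.86 to 6.35). It was high for type I interferon genes (6.29, others 4.67 to 4.99), and log2 CPM was high for Tmc8 (7.21) and Rasgrp2 (7.67). DJB 4 stood apart in its milk gene share (7.94%) and its mitochondrial ribosomal RNA share (1.15%). The other libraries standing apart were T2DM 3 for fatty acid uptake (mean log2 CPM 6.94), DJB 5 for the tricarboxylic acid cycle (7.05), T2DM 2 for Fcho1 (2.64), and T2DM 4 for Tcf3 (4.80) and Slc2a4 (3.51).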

How the results depend on the processing

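The count of called genes was 0 in the fit of all libraries, 168 with DESeq2 and 0 to 29 when 1 library was left out (1 without T2DM 2, 9 without T2DM 5, 29 without DJB 2, 14 without DJB 3). The 1259 genes at an unadjusted p under 0.05 became 781 with limma on log2(FPKM + 0.1), 2129 with no filter and 773 to 1547 when 1 library was left out. In the 10 subcutaneous libraries alone they became 1040 without covariates, 571 with the mammary score, 603 with both scores and 510 with the mitochondrial share. Of settings chosen after seeing the data, the mammary score without DJB 2 gave 814 and leaving out DJB 2 and 4 gave 1084. Whether replicate numbers pair the samples was not settled. In deviations from the group mean, 1 of 5 same-numbered pairs correlated above 0.1 (replicate 4, at 0.32). Of the 5 T2DM libraries 1, and of the 5 DJB libraries 1, correlated best with its own number. With the replicate block 0 genes were called and 662 stood at an unadjusted p under 0.05.

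Some log2 fold changes changed sign. With limma on log2(FPKM + 1) Adipor2 was -0.32 and Slc2a4 -0.22, and with 0.1 added Lep was -0.090, Adipor2 -0.39 and Slc2a4 -0.39; limma moved the median of all genes to -0.07 and -0.10. Under the replicate block Lep was -0.19, Adipor2 -0.25 and Slc2a4 -0.10. With the lymphoid score Ghr was 0.16 and Ccl21 -0.24, with both scores Ghr was 0.40, and with the mammary score without DJB 2 Ghr was 0.20. With the mitochondrial share Cnr2 was -0.24, Fcho1 -0.25, Grap -0.89, Ghr 0.42, Stat5b 0.23, Cd79a -2.96, Lck -0.37, Ccl21 -1.60 and RT1-DOb -0.23. Without DJB 2 and 4 Fcho1 was -0.11, Grap -0.24, Ghr 0.34, Stat5b 0.040, Cd79a -1.52, Ms4a1 -2.33, Lck -0.13, Ccl21 -0.86 and RT1-DOb -0.55. Jak2 was 0.0030 with the length trend removed. When 1 library was left out Adipoq ranged from -0.31 to 2.02, Lep from -1.01 to 2.94, Ghr from -0.68 to 0.19, Igf1 from -0.28 to 0.65, Adipor2 from -0.31 to 0.34, Slc2a4 from -0.17 to 0.58 and Ucp1 from -2.49 to 0.28. The cause was not tested.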
